A study of Mus musculus with 24 samples.

Results

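The THO complex binds nascent transcripts and, together with the RNA helicase Ddx39b and the adaptor Alyref, forms TREX, the assembly that couples mRNA synthesis and splicing to export from the nucleus. Thoc2 is the large scaffold subunit on which Thoc1, Thoc3, Thoc5, Thoc6 and Thoc7 assemble, and Alyref hands the mRNA to the export receptor Nxf1. In a limb bud, where mesenchymal progenitors divide rapidly, newly made mRNA of all kinds passes through this route. The 7 genes Thoc1, Thoc2, Thoc3, Thoc5, Thoc6, Thoc7 and Alyref were selected by symbol among 38019 symbols in the expression tables, and all 7 passed the filter on low values (1 TPM in at least 3 libraries) in every fit. Earlier results of these data had singled out Thoc2 as low in mutant forelimbs at E11.5, so values from that arm are given as a description, with no test. The WT forelimb libraries at E11.5 were the other side of that contrast and also enter tested comparisons of stage and limb.

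Total RNA was sequenced from forelimb (FL) and hindlimb (HL) buds of C57/Bl6 mouse embryos at 2 embryonic stages, E10.5 and the later E11.5. All embryos carried 2 floxed alleles of U11 (symbol Rnu11), the small nuclear RNA of the minor spliceosome, which removes a rare class of introns. WT stands for the genotype U11flx/flx::Prrx1-Cre-, and mutant for U11flx/flx::Prrx1-Cre+, which gives 8 groups of 3 libraries. Prrx1-Cre acts in limb mesenchyme, and blood, vessels, ectoderm, nerve and immigrating muscle precursors lie mostly outside that domain. The labels do not say how many embryos gave a library or whether FL and HL came from the same embryos, and a p-value here rests on library-to-library spread, which may be partly technical. Values are TPM, a length-normalised share of the transcripts of a library, here rescaled so that the median gene is equal between libraries. TPM keeps no read depth, so the counting error of low values is unknown. In bulk tissue, fewer cells of a type and less RNA per cell cannot be told apart.

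Rnu11 in mutants was 36.7% and 35.9% of WT at E10.5 (FL, HL), and 13.5% and 25.3% at E11.5, and the mutant and WT libraries overlapped only in E10.5 FL. The 4 mesenchyme markers Prrx1, Twist1, Msx1 and Lhx2 summed to 47.2 TPM or more in each library. E10.5 mutant FL library 3 held hindlimb markers (Tbx4, Pitx1 and Hoxc10) at a sum of 7.12 TPM, while no WT forelimb library passed 1.13. Xist was at 5 TPM or more in 6 mutant libraries (E10.5 FL 1 and 3, E10.5 HL 1 and 3, E11.5 FL 3 and E11.5 HL 3) and in 0 WT libraries, which bears on Thoc2 because that gene lies on the X chromosome.

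Thoc2 occupies chrX:41794991-41920674 on the minus strand (mm10, GENCODE M21), and its longest annotated transcript has 7622 nt with a GC content of 37.5%. Its partners are shorter, from 937 nt for Thoc7 to 4134 nt for Thoc1. A copy of Thoc2, annotated as BC005561, lies at chr5:104508352-104522611 on the plus strand, and its transcript of 5409 nt aligned to that of Thoc2 over 5047 columns with 86.5% identity. The following 60 bases of coding sequence from each transcript (positions 43 to 102 of Thoc2, 430 to 489 of BC005561, GENCODE M21) are shown because they let a reader judge how well reads of these genes can be separated. The stretch has 8 mismatches, close to the mean of the alignment, and capitals mark the mismatched bases.
Thoc2: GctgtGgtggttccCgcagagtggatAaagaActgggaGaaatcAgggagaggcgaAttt
BC005561: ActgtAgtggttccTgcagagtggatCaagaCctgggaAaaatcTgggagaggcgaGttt
The longest identical run in the alignment was 56 nt, and 0.092% of the 50-base words of the Thoc2 transcript occurred in the copy. BC005561 was measured at 2.07 to 4.84 TPM, below Thoc2 in every library. Other members have relatives that could share reads: Alyref with Alyref2 (86.0% identity over 833 bases, at most 0.986 TPM) and Thoc3 with Gm5253 (87.0% over 1059 bases). On the opposite strand, Thoc1 overlaps Usp14 by 2424 bp, and Thoc6 overlaps Hcfc1r1 by 287 bp and Bicdl2 by 8 bp. Thoc7 overlaps Atxn7 by 413 bp and Gm11100 by 547 bp, and Thoc2 overlaps Gm7657 by 666 bp, also on the opposite strand. Which strand was counted is not given in the sources used here, so reads of these pairs cannot be told apart. Thoc5 overlaps AA413626 by 494 bp on the same strand, where knowing the strand would not separate reads. AA413626 is not listed in the expression tables.

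The promoters of Thoc2, Alyref and Thoc5 are shown because these 3 genes were called on rescaled values in all 3 tested stage comparisons, the first pair higher relative to the median gene and Thoc5 lower. Each sequence runs 250 bases before to 50 bases after the start annotated by RefSeq (GRCm38.p6). The table held 5 of the 7 members. Capitals mark matches, on either strand, to CCGGAAG (an ETS-family core), AAGATGGCG (a YY1 core), TTTCCCGC (an E2F core), CCAAT and TATAAA, and no matches overlapped.
Thoc2 promoter, chrX:41911852-41912151, minus strand: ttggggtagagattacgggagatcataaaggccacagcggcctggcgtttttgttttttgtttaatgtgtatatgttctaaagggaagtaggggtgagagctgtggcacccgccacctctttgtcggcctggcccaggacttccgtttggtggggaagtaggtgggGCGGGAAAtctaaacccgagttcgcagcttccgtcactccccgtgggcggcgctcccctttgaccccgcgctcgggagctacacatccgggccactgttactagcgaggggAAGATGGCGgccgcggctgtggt
Alyref promoter, chr11:120598316-120598615, minus strand: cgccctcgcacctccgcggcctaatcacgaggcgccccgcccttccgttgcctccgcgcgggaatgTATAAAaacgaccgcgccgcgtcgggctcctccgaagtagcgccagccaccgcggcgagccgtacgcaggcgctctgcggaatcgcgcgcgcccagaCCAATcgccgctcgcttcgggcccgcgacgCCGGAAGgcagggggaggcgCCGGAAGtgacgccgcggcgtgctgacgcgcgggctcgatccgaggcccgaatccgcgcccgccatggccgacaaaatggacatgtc
Thoc5 promoter, chr11:4895093-4895392, plus strand: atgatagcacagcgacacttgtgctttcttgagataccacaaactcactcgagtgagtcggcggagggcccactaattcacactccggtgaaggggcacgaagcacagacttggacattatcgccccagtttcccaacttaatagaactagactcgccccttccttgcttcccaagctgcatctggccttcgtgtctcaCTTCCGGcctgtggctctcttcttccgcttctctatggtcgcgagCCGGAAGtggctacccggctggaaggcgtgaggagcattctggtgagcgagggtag
CCGGAAG, found in 8.86% of the 32851 promoters of the table, occurred in Alyref and Thoc5. These moved in opposite directions on rescaled values, while on the deposited scale both were negative in each tested arm. AAGATGGCG (1.4% of promoters) and TTTCCCGC (1.07%) occurred in Thoc2. CCAAT (37.41%) and TATAAA (13.62%) occurred in Alyref, and CCAAT also in Thoc6. A match is a description of letters in this window and not of binding, which was not measured.

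The 7 genes were expressed at very different levels. Mean rescaled TPM over the 24 libraries was 97.0 for Alyref, 52.0 for Thoc7, 20.6 for Thoc2, 16.5 for Thoc3, 12.6 for Thoc1, 11.3 for Thoc6 and 8.73 for Thoc5. Alyref lay above Thoc7 in all libraries without overlap, and Thoc7 above Thoc2, whereas each further neighbour in this order overlapped with the next. Thoc2 was the third most abundant of the 7 in each group mean except in E11.5 mutant FL, where Thoc3 took that place. Thoc5 had the largest coefficient of variation over all libraries (28.5%), followed by Thoc2 (26.5%), and Thoc6 the smallest (15.3%).

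**Figure D1:**
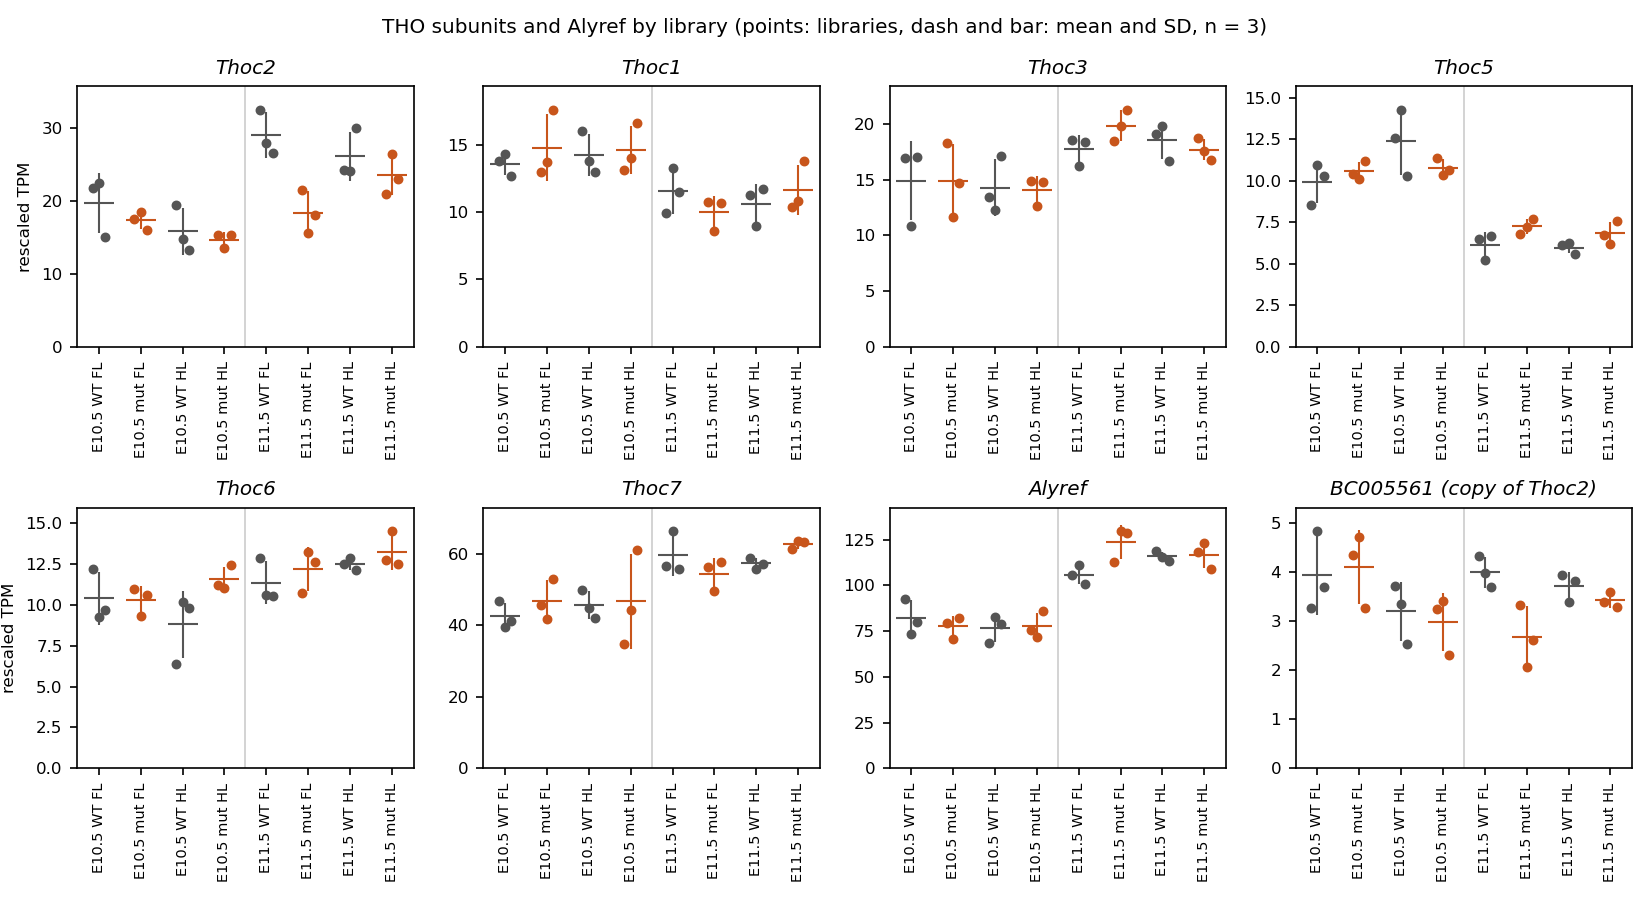
Rescaled TPM of each THO gene, Alyref and the Thoc2 copy BC005561 in the 24 libraries, by stage, limb and genotype (grey WT, orange mutant; points are libraries, dash and bar the mean and SD, n = 3). Thoc5 at E10.5 ran from 8.54 to 14.3 TPM, at E11.5 from 5.20 to 7.72, and E11.5 mutant FL stood at 15.6 to 21.5 TPM of Thoc2 against 26.5 to 32.5 in WT.

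Between E10.5 and E11.5 the composition of the THO mRNAs shifted: Thoc2, the scaffold, and Alyref, the adaptor, rose relative to the median gene in WT FL, WT HL and mutant HL, and Thoc5 fell in the same 3 arms. On the deposited scale, where the median gene itself fell by 0.27, 0.42 and 0.61 in these arms, Alyref stood at -0.11, -0.055 and -0.26 and Thoc2 at 0.09, 0.07 and -0.17 (none called), while Thoc5 was still called lower. After a correction of each library for transcript length and GC content, added after seeing the data, Thoc2 stood at 0.27 in WT FL (adjusted p = 0.108), 0.37 in WT HL (adjusted p = 0.0307) and 0.32 in mutant HL (adjusted p = 0.0574), so that only the WT HL call remained for that gene. Alyref and Thoc5 were called under the correction in all 3 arms. All stage results below are therefore relative to the median gene. The stages also differ in read trimming (3 nt removed at E10.5 only), and stage and trimming cannot be told apart.

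Thoc2 measured 21.8, 22.5 and 14.99 TPM in E10.5 WT FL and 32.5, 28.0 and 26.5 in E11.5 WT FL. The groups did not overlap, and library 3 of E10.5 was the lowest. The log2 difference was 0.55 ± 0.16 (SE of the limma fit, adjusted p = 0.0101). It was 0.37 without that library (adjusted p = 0.0625) and 0.47 without E11.5 WT FL library 1 (adjusted p = 0.0506). The E11.5 WT FL libraries also stand in the contrast in which Thoc2 was noticed, so the p-values of this arm are not free of that choice. In WT HL, Thoc2 measured 19.4, 14.8 and 13.3 TPM at E10.5 and 24.2, 24.1 and 30.0 at E11.5, a log2 difference of 0.70 ± 0.16 (adjusted p = 0.00193). In mutant HL it went from 15.3, 13.5 and 15.3 TPM to 21.02, 26.4 and 23.1, a log2 difference of 0.64 ± 0.16 (adjusted p = 0.00422), and without the libraries holding Xist this was 0.76 (adjusted p = 0.0748, with 1 library left at E10.5). On rescaled TPM, E11.5 libraries were above E10.5 libraries without overlap in each of these arms, but on deposited TPM the stages overlapped in each. How many of all genes separate by stage in this way was not counted, here or for Alyref and Thoc5 below. In mutant FL, which was not tested, Thoc2 measured 17.5, 18.5 and 16.04 TPM at E10.5 and 21.5, 15.6 and 18.1 at E11.5, a log2 difference of 0.07 ± 0.16. The E10.5 library at 16.04 TPM is the one that held hindlimb markers.

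Alyref, which binds spliced mRNA and recruits the receptor, measured 92.7, 73.1 and 80.2 TPM in E10.5 WT FL and 105.5, 111.2 and 100.9 in E11.5 WT FL. Over each stage as a whole its range was 68.3 to 92.7 TPM (E10.5) and 100.9 to 129.6 TPM (E11.5). On rescaled TPM Alyref was thus higher in all late libraries than in all early ones, but on deposited TPM the stages overlapped. Its log2 differences were 0.37 ± 0.11 in WT FL (adjusted p = 0.0102), 0.59 ± 0.11 in WT HL (adjusted p = 0.000338) and 0.58 ± 0.11 in mutant HL (adjusted p = 0.000476). The WT FL value was 0.29 without E10.5 WT FL library 2 (adjusted p = 0.0522). In mutant FL the value was 0.67 ± 0.11, as a description.

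Thoc5, which works with Thoc7 in the complex, had a range of 8.54 to 14.3 TPM (median 10.51) in E10.5 libraries and of 5.20 to 7.72 (median 6.58) in E11.5 libraries. On rescaled TPM no E11.5 library reached the lowest E10.5 library. On deposited TPM the stages overlapped, with 9.41 in E11.5 mutant FL library 3 and 7.98 in E10.5 mutant FL library 3. Within each tested arm they did not overlap on either scale. The log2 differences were -0.62 ± 0.11 in WT FL (adjusted p = 0.000544), -0.93 ± 0.11 in WT HL (adjusted p = 1.2e-05) and -0.59 ± 0.11 in mutant HL (adjusted p = 0.000729), and -0.49 ± 0.11 in mutant FL as a description. In WT FL, WT HL and mutant HL, 7.44%, 2.86% and 8.90% of all genes tested were as low as Thoc5. In the same order, 14.4%, 9.30% and 7.98% were as high as Thoc2, and 26.3%, 13.2% and 9.95% as high as Alyref. Thoc5 kept its call in each of the 3 tested arms under every alternative that was run.

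Thoc7 ran the other way: it was called higher in WT FL (0.48 ± 0.14, adjusted p = 0.0142) and in mutant HL (0.46 ± 0.14, adjusted p = 0.0200), with 0.33 ± 0.14 in WT HL (adjusted p = 0.0760). The WT FL call was lost without E11.5 WT FL library 2 (adjusted p = 0.0637). The mutant HL call was lost without E10.5 mutant HL library 1 (log2 difference 0.27, adjusted p = 0.141), library 2 (0.0605) or E11.5 mutant HL library 2 (0.0597).

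Thoc6, a WD-repeat subunit, was called higher only in WT HL (0.49 ± 0.14, adjusted p = 0.00841), where E10.5 library 1 was the lowest at 6.42 TPM, and without it the value was 0.30 (adjusted p = 0.0635). In WT FL and mutant HL its values were 0.12 and 0.18, and the differences between arms were not called.

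Thoc1 was called lower only in WT HL (-0.39 ± 0.14, adjusted p = 0.0329), with -0.22 in WT FL and -0.31 in mutant HL. That call was lost without E10.5 WT HL library 1 (adjusted p = 0.128), E10.5 WT HL library 2 (0.0556) or E11.5 WT HL library 2 (0.159). On the deposited scale, and after a correction for length and GC content, Thoc1 was called lower in all 3 tested arms.

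Thoc3, another WD-repeat subunit, had a range of 10.8 to 18.3 TPM in E10.5 libraries and of 16.2 to 21.3 in E11.5 libraries. Its log2 differences of 0.26, 0.36 and 0.31 did not pass (adjusted p = 0.206, 0.0752 and 0.133).

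In counts, 3 of 7 members were called higher and 1 lower in WT FL, where 38.8% of all 12399 genes tested were called (22.4% higher and 16.4% lower). In WT HL the counts were 3 higher and 2 lower, beside 40.9% of all genes (23.0% and 17.9%). In mutant HL they were 3 higher and 1 lower, beside 35.5% (18.0% and 17.5%). The median log2 difference of the 7 members was 0.26, 0.36 and 0.31 in these arms, and that of all genes 0.06, 0.06 and 0.02. On the deposited scale the calls over all genes split into 223 higher and 2500 lower in WT FL, 270 and 4011 in WT HL, and 169 and 6140 in mutant HL, against 2774 and 2039, 2851 and 2224, and 2226 and 2172 on the rescaled values. On that scale 0 members were called higher by limma, and 2, 2 and 3 were called lower.

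**Figure D2:**
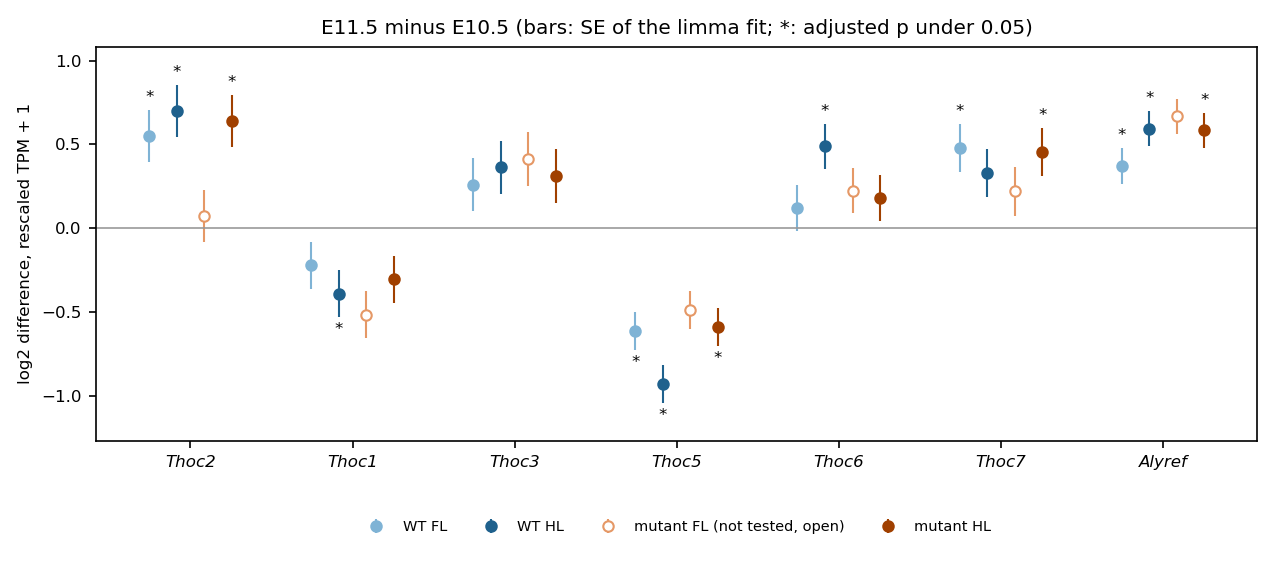
Log2 difference between E11.5 and E10.5 of each gene in the 4 arms, on rescaled TPM + 1 (bars are the SE, stars mark adjusted p under 0.05, open circles were not tested). Thoc5 lies below 0 in all arms, from -0.93 to -0.49, and Alyref above 0, from 0.37 to 0.67, while Thoc2 in mutant FL lies at 0.07.

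A ratio of 2 genes within a library does not depend on the scale. Alyref divided by Thoc5, a pair chosen after their values were seen, ran from 5.43 to 10.9 (median 7.17) in the 12 E10.5 libraries and from 14.4 to 21.4 (median 17.7) in the 12 E11.5 libraries. The stages did not overlap in any limb or genotype. At E11.5 the ratio was 17.6 ± 3.35 in WT FL and 17.1 ± 0.731 in mutant FL (SD, n = 3), so this balance did not differ between genotypes beyond the spread of the libraries there.

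Markers of some other cells also moved between stages. The 6 surface ectoderm genes summed to 17.1 to 51.2 TPM at E10.5 and to 36.3 to 78.3 at E11.5, and the 5 endothelial genes to 17.4 to 36.5 and at most 25.1. The part of these cells in the stage differences was not tested.

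The wider export route was examined through 43 genes named from general knowledge of the pathway, of which 38 passed the filter on low values. Of these, 8 were called higher and 9 lower with stage in WT FL, 6 and 14 in WT HL, and 4 and 15 in mutant HL. Among all 12399 genes tested the shares were 22.4% higher and 16.4% lower in WT FL, 23.0% and 17.9% in WT HL, and 18.0% and 17.5% in mutant HL. The median log2 difference of the 38 was -0.07, -0.21 and -0.22 in these arms, beside 0.06, 0.06 and 0.02 for all genes. On the deposited scale 0 of the 38 were called higher (limma) and 12, 23 and 29 lower, where 20.2%, 32.3% and 49.5% of all genes were called lower and 1.80%, 2.18% and 1.36% higher. The 9 genes called lower in all 3 arms were Ddx39b and Ddx39, Nxf1, the cap-binding proteins Ncbp1, Ncbp2 and Ncbp3, Rbm8a of the exon junction complex, and the pore factors Gle1 and Rae1. On the deposited scale Ncbp3 was not called in WT FL (limma, adjusted p = 0.0553). The share of all genes called alike in all 3 arms was not counted, and the arms share the same fit, rescaling and trimming difference. Ddx39b, the helicase that loads Alyref, fell by 0.51, 0.59 and 0.71 on the log2 scale in WT FL, WT HL and mutant HL (adjusted p = 0.00155, 0.000454 and 0.000123). It measured 82.5, 87.1 and 92.6 TPM in E10.5 WT FL and 62.8, 58.1 and 62.1 in E11.5 WT FL. Its close paralog Ddx39, with which it may share reads, fell by 0.71, 0.96 and 0.90, and Nxf1, the export receptor itself, by 0.68, 0.59 and 0.64. Rbm8a fell most among the 9, by 1.16, 0.97 and 1.098. The 4 genes called higher in all 3 arms relative to the median gene were Cetn2 and Shfm1 (symbol of Sem1 in the files) of TREX-2, Zc3h11a, and Srrt, a partner of the cap-binding complex. Zc3h11a measured log2 differences of 0.66, 0.64 and 0.49 and Srrt of 0.49, 0.75 and 0.45.

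The genotype question asks whether loss of U11 in limb mesenchyme changed the mRNAs of the complex. In the 3 arms that could be tested, 0 of the 7 members were called by limma: E10.5 FL (0.0251% of all genes called), E10.5 HL (0.00836%) and E11.5 HL (0.0180%). Nor was any called in the mean of these 3 arms (0.0565%). At an unadjusted p under 0.05 there was 1 member in 1 arm, Thoc6 in E10.5 HL (unadjusted p = 0.0354, adjusted p = 1). Such shares leave little room for a call among 7 genes.

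In E11.5 FL, Thoc2 measured 32.5, 28.0 and 26.5 TPM in WT and 21.5, 15.6 and 18.1 in mutants. All mutant libraries were below all WT libraries. The log2 difference was -0.63 ± 0.13, a level in mutants of 0.65 of WT on the TPM + 1 scale, and 2.35% of all genes were as low. This is the contrast in which the gene was noticed, so it has no test here. On deposited TPM the groups overlapped (19.4 to 29.4 in WT, 18.8 to 22.0 in mutants) and the value was -0.13, where the median of all genes was 0.39. With protein-coding genes alone summed anew it was -0.57, and without the mutant library holding Xist it was -0.62.

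In the other arms no value of Thoc2 passed. In E11.5 HL it measured 24.2, 24.1 and 30.0 TPM in WT and 21.02, 26.4 and 23.1 in mutants, which overlap, with a log2 difference of -0.14 (95% interval -0.43 to 0.16, adjusted p = 0.808). In E10.5 FL the values were 21.8, 22.5 and 14.99 in WT and 17.5, 18.5 and 16.04 in mutants (-0.16, interval -0.53 to 0.22, adjusted p = 0.947). In E10.5 HL they were 19.4, 14.8 and 13.3, and 15.3, 13.5 and 15.3 (-0.08, interval -0.45 to 0.30, adjusted p = 1). The mean of the 3 arms was -0.13 (interval -0.32 to 0.06, adjusted p = 0.722). With deposited TPM the 3 arms gave -0.22 (E11.5 HL), -0.35 (E10.5 FL) and 0.025 (E10.5 HL), none called, so these arms carry no direction. The difference of the E11.5 FL value from the others was not tested. Without E10.5 mutant FL library 3, which held hindlimb markers, the E10.5 FL value was -0.12 and the mean of the 3 arms -0.11.

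**Figure D3:**
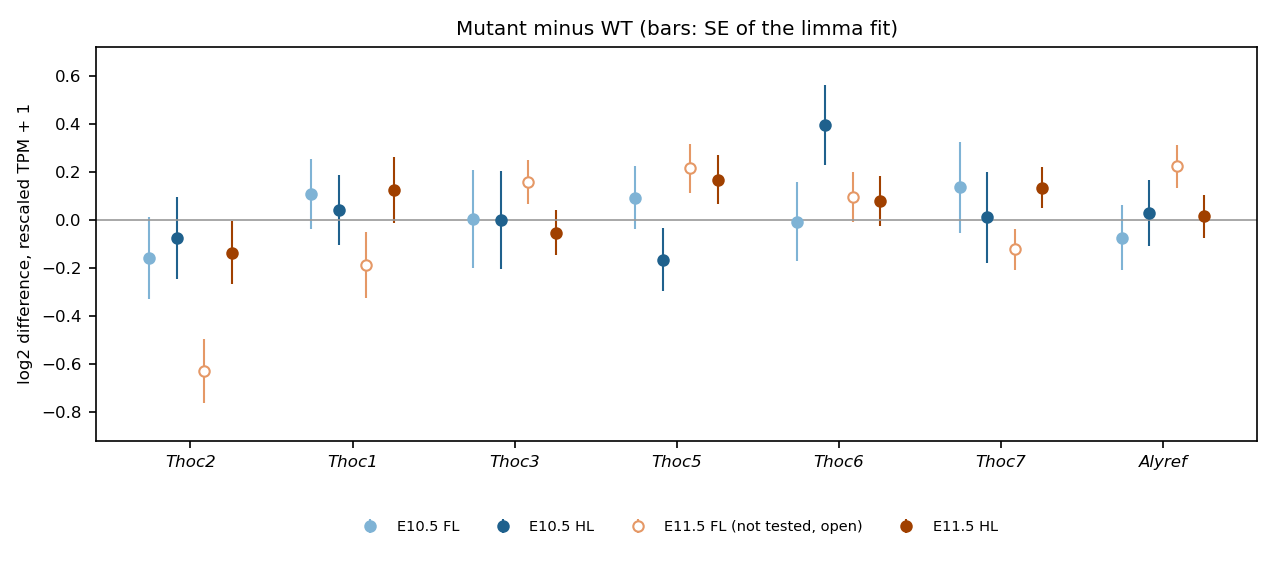
Log2 difference between mutant and WT of each gene in the 4 arms, on rescaled TPM + 1 (bars are the SE; open circles, E11.5 FL, were not tested). Thoc2 in E11.5 FL stands at -0.63, and the other values lie between -0.19 and 0.40.

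The partners did not share the Thoc2 value in E11.5 FL. Thoc5 measured 6.50, 5.20 and 6.67 TPM in WT and 6.80, 7.23 and 7.72 in mutants (0.22 ± 0.10). Alyref measured 105.5, 111.2 and 100.9 in WT and 113.0, 129.6 and 128.7 in mutants (0.22 ± 0.09). For both, mutant libraries were above WT libraries without overlap. Thoc3 stood at 0.16, Thoc6 at 0.10, Thoc7 at -0.12 and Thoc1 at -0.19, with overlapping groups. In this arm 3 of 7 members did not overlap between genotypes, where 25.8% of all genes did not. The count was 0 in E10.5 FL (10.4% of all genes), 1 in E10.5 HL (Thoc6, higher in mutants, 5.75%) and 1 in E11.5 HL (Thoc7, higher in mutants, 11.6%).

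Among the 38 other export genes of E11.5 FL, 19 lay above 0 and the median was 0.00, again as a description. Ddx39b measured 62.8, 58.1 and 62.1 TPM in WT and 77.5, 83.5 and 74.2 in mutants, and Ddx39 measured 18.1, 16.8 and 17.5 in WT and 22.4, 21.5 and 22.5 in mutants. Both helicases were higher in all mutant libraries, at 0.36 ± 0.09 and 0.33 ± 0.08, where 25.8% of all genes did not overlap between genotypes. They are named as the highest of the 38 values, which ran from -0.28 to 0.36. In the tested genotype comparisons 0 of the 38 were called by limma.

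The balance of Thoc2 against its partners, taken as its log2 level minus the mean log2 level of the other 6, depends on the scale of a library only through the 1 TPM added before the logarithm. In E11.5 FL it was 0.41 ± 0.14 in WT and -0.29 ± 0.25 in mutants (SD, n = 3), a difference of -0.70 (-0.73 with 0.1 TPM added instead), and the groups did not overlap. The difference ran from -0.75 to -0.67 when each partner was left out in turn and from -0.84 to -0.60 when each library was. These are the Thoc2 values of the contrast in which the gene was noticed, so size and lack of overlap partly follow from that choice. Leaving out partners or libraries does not remove it, and the balance has no test here. Thoc2 has the longest transcript and the lowest GC content of the members, so shifts tied to length and GC content can enter the balance. The balance was not recomputed after the length and GC correction. In E11.5 HL the difference was -0.22, and at E10.5 it was -0.20 (FL) and -0.13 (HL), and each of these was near the SD within its groups (0.18, 0.28 and 0.23). The E10.5 HL value was 0.044 without E10.5 WT HL library 1. As a share of Alyref, Thoc2 was 27.4% ± 3.00 in E11.5 WT FL and 15.1% ± 3.61 in mutant FL, which is the same chosen contrast.

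**Figure D4:**
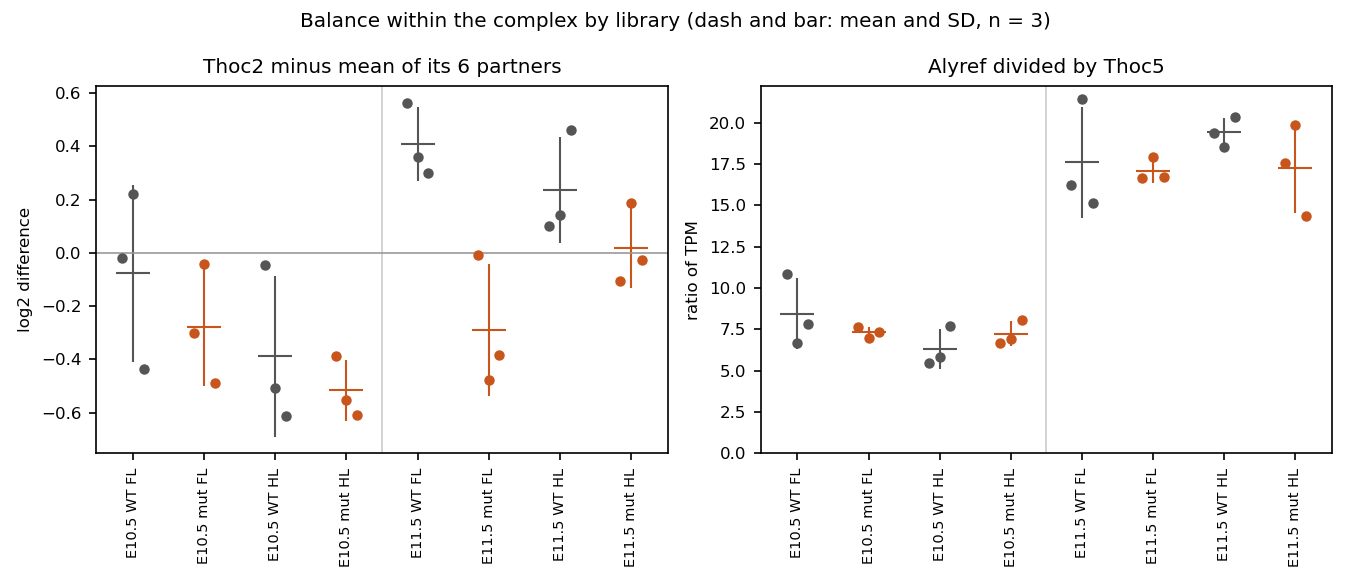
Left, log2 level of Thoc2 minus the mean log2 level of its 6 partners by library; right, Alyref TPM divided by Thoc5 TPM (grey WT, orange mutant; dash and bar are mean and SD, n = 3). On the left E11.5 WT FL stands at 0.41 and E11.5 mutant FL at -0.29, and on the right all E11.5 libraries lie at 14.4 or more and all E10.5 libraries at 10.9 or less.

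Length and base composition moved with the E11.5 FL difference. The 628 genes with transcripts of at least 5151 nt and a GC content of at most 43.8% had a median of -0.16 there, against 0.02 for the 649 short, GC-rich genes, and 3.34% of the long, GC-poor genes were as low as Thoc2. After the same correction for length and GC content as above, Thoc2 stood at -0.38, from -0.42 to -0.33 with each library left out. The copy BC005561, itself long and GC-poor, measured 4.33, 3.98 and 3.70 TPM in WT and 3.34, 2.07 and 2.62 in mutants.

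Markers of some other cells moved as well in E11.5 FL. The 6 surface ectoderm genes summed to 57.7 to 78.3 TPM in WT and 38.2 to 53.2 in mutants. The sums were 13.5 to 15.9 and 17.1 to 23.1 for 5 endothelial genes, 4.76 to 5.38 and 7.95 to 9.43 for 4 muscle precursor genes, and 7.74 to 9.68 and 9.75 to 13.2 for 4 nerve and Schwann genes. The genotypes overlapped for 5 erythroid genes (2233 to 4708 TPM in WT, 2957 to 3573 in mutants) and for 4 myeloid genes (1.09 to 1.46 in WT, 1.39 to 3.31 in mutants). None of these lists had a gene at 0 in all 3 libraries of a group. The part of these cells, or of length and GC content, in the Thoc2 value was not tested. Splicing of the Thoc2 transcript, and whether it holds a minor intron, was not analysed here.

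**Figure D5:**
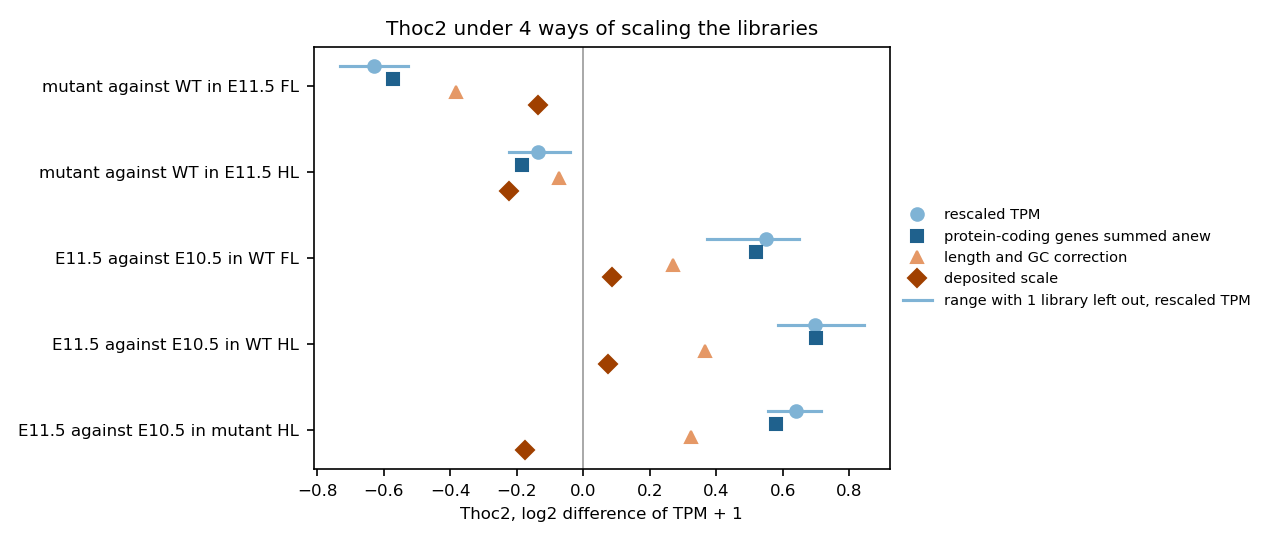
Log2 difference of Thoc2 in 5 comparisons under 4 ways of scaling the libraries (lines give the range with 1 library left out). The E11.5 FL value runs from -0.63 on rescaled TPM to -0.13 on the deposited scale, and the 3 stage values, 0.55 to 0.70 on rescaled TPM, lie between -0.17 and 0.09 on the deposited scale.

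The limbs were compared within genotype and stage. In HL against FL, 0 of 7 members were called by limma in E10.5 WT (0.0920% of all genes called), E10.5 mutant (0.0586%) or E11.5 WT (0.144%), and 0 passed an unadjusted p of 0.05. The values of Thoc2 were -0.31 (95% interval -0.68 to 0.07, adjusted p = 0.5999), -0.22 (-0.60 to 0.15, adjusted p = 0.903) and -0.14 (-0.43 to 0.15, adjusted p = 0.853). The E10.5 mutant value was -0.27 without FL library 3, and -0.021 after the length and GC correction. With deposited TPM the 3 values were -0.048, 0.33 and -0.061, so no direction is given for them. The E11.5 WT value also uses the FL libraries of the contrast in which Thoc2 was noticed. In E11.5 mutants, as a description, Thoc2 was 0.35 ± 0.13 higher in HL than in FL. No difference between effects (of genotype between limbs at E10.5, of genotype between stages in HL, of stage between limbs in WT) was called for any member, the lowest adjusted p being 0.746, although Thoc5 had an unadjusted p under 0.05 in 1 of them.

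Across the 24 libraries the members did not vary as 1 unit. Pearson correlations of log2 levels over the 21 pairs ran from -0.85 (Thoc5 with Alyref) to 0.79 (Thoc3 with Alyref), with a median of 0.28. Within groups, after each group mean was removed, they ran from -0.41 (Thoc2 with Thoc3) to 0.82 (Thoc6 with Alyref), with a median of -0.06. The points share their libraries and their scaling, so these values are descriptions.

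Likeness to Thoc2 over the 24 libraries was compared among 5552 genes with a mean of at least 5 TPM. Members, Xist, Y-linked genes and genes with predicted or clone-based names were left out. The most alike were Ptbp2 (r = 0.93), Zfp292 (0.93), Trpm7 (0.92), Phip (0.91) and Pik3c2a (0.91). The most opposite were Wdr46 (-0.91), Srm (-0.91) and U2af2 (-0.90). Zfp292 averaged 19.2 TPM in E11.5 WT FL and 14.2 in mutant FL, and Trpm7 23.9 and 17.2. U2af2, a splicing factor of the major spliceosome, averaged 30.2 and 40.5. These genes were picked by their correlation with Thoc2 over libraries that include E11.5 FL. Their differences there follow from that choice and are no separate result. The 5 like genes have transcripts of 3777 to 10756 nt with 38.7% to 43.1% GC, and the 3 opposite genes 1338 to 2229 nt with 56.4% to 59.8% GC. Among THO partners, Thoc7 ranked 912 and Thoc5 5731 in likeness to Thoc2, out of 5937 genes when none were left out by name.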

How the data were processed

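Total RNA of mouse limb buds was sequenced by the authors from 24 samples, 1 library each. For every gene symbol the authors deposited a TPM value, and these sum to 1000000 in each library. Per the submitters' processing notes, HISAT2 and mm10 were used. Quantifier, gene annotation and counted strand: not given in the sources used here. As the labels state, E10.5 reads were trimmed by 3 nt and E11.5 reads were not. Protein-coding genes held 13.6% to 32.8% of TPM, so each library was rescaled to an equal median log2 taken over genes that reach 5 TPM in all libraries fitted (E10.5, 4168 genes; E11.5, 3949 genes; both stages, 3518 genes, used for printed levels). Read depth is unknown.

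Genes with at least 1 TPM in 3 libraries were fitted as log2(rescaled TPM + 1) with limma 3.58.1 (R 4.3.3) and an intensity trend, two-sided, Benjamini-Hochberg adjusted over all genes, threshold 0.05. Genotype and limb contrasts were fitted on the 12 libraries of 1 stage with 8 residual degrees of freedom, and stage contrasts on all 24 with 16. The procedure was tested on simulated data. Members, gene lists, comparisons and alternatives were chosen with earlier results of these data known. Named genes are the 7 members, Rnu11, pathway genes called in tested contrasts, and the 5 most and 3 least correlated genes with Thoc2. Outside this rule, cell and limb markers, Xist and genes that copy or overlap a member are named as checks. Groups follow the labels, and no library was left out. Replicates correlated at 0.958 to 0.989, and no pair was identical. Residuals of same-numbered FL and HL libraries of E10.5 mutants correlated at 0.20 to 0.52. No other pair of groups passed 0.1 in all 3 pairs. Transcript length and GC content were taken from GENCODE M21, promoters from RefSeq. Alternatives were the scale, pseudocount, filter, libraries fitted, a replicate block, libraries left out and a length and GC correction.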

Additional observations from a re-analysis of the deposited data

How the results depend on the processing

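Each of the 7 genes in each tested comparison was recomputed under the alternatives, 1211 values in all. Of these, 985 belonged to values called by neither setting, 103 of which changed sign and carry no direction. For Thoc2, 160 of 173 recomputed values were counted as unchanged, and these include comparisons in which Thoc2 was never called. Of the rest, 10 lost a call and 1 changed side, all in stage comparisons, and 2 uncalled limb values moved in size. To count as unchanged, a called value had to keep its call and side, whatever its size, and a value called by neither setting its size. Stage in WT HL was thus counted as unchanged, though it went from 0.70 to 0.37 with length and GC correction. On the deposited scale Thoc2 moved to -0.13 for mutant against WT in E11.5 FL, to -0.048 and 0.33 for HL against FL in E10.5 WT and mutant, and to 0.086, 0.074 and -0.17 for stage in WT FL, WT HL and mutant HL. There the called stage values of other members changed side: Alyref to -0.11, -0.055 and -0.26, Thoc6 in WT HL to -0.11, and Thoc7 in mutant HL to -0.38. Thoc6 in mutant HL, not called on rescaled values, was called at -0.61 (adjusted p = 0.0324). The cause was not tested. With length and GC correction Thoc2 stood at -0.38 in E11.5 FL, and its stage calls were lost in WT FL (0.27, adjusted p = 0.108) and mutant HL (0.32, adjusted p = 0.0574), also with the block added, while WT HL (0.37, adjusted p = 0.0307) was still called. Fitting only the groups compared gave 0.54 for stage in WT FL (adjusted p = 0.0652, with fewer samples), and leaving out libraries with Xist gave 0.76 in mutant HL (adjusted p = 0.0748). With each library left out, the WT FL stage value ran from 0.37 to 0.65. The replicate number as a block left Thoc2 at -0.63 in E11.5 FL and 0.55 (adjusted p = 0.0101) for stage in WT FL and changed no call of Thoc2. Residuals of same-numbered libraries correlated above 0.1 in all 3 pairs only between FL and HL of E10.5 mutants. In that comparison the blocked HL against FL value of Thoc2 was -0.22 (limma, adjusted p = 0.772). Lower correlations elsewhere do not show that libraries are unrelated. In E11.5 mutants, library 3 was the library holding Xist in both FL and HL. Among partners, the block brought Thoc3 past the threshold for stage in WT HL (0.36, adjusted p = 0.0490). TPM keeps no depth, so how far low counts limit Thoc5 or Thoc6 is unknown.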
